A study of Mus musculus with 19 samples.

Results

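The genes described here are 40 genes of endoplasmic reticulum (ER) stress and amino acid synthesis, out of 51707 genes summed from the deposited transcript tables. They were taken by name: 6 regulators, 15 genes that the transcription factor ATF4 is known to induce, and 19 genes that XBP1 and ATF6 are known to induce. All 40 were found, and all 40 passed the low-count filter in every comparison. The 19 RNA-seq libraries came from cells sorted by flow cytometry from orthotopic pancreatic ductal adenocarcinomas. The tumours had been grown in C57BL/6J mice from transplanted T-LOH KPC organoids, a mouse model of pancreatic cancer. The mice had received neratinib, an irreversible inhibitor of ERBB family receptor tyrosine kinases, or vehicle for 2 weeks. PDPN+ cells, labelled as cancer-associated fibroblasts (CAFs), gave 4 neratinib and 4 vehicle libraries. EpCAM+ cells, labelled as epithelial cells, gave 5 neratinib and 6 vehicle libraries. All groups share the transplanted organoid line, and the labels state neither the origin of the PDPN+ cells nor the ages of the mice. Labels carry a number of 5 digits that is taken here for the mouse, an inference that gives 11 mice, 8 of them with both populations. A letter after that number in the label, N for neratinib or V for vehicle, marks the treatment and is written before the number here. Nothing in the labels states that libraries of a group are separate animals, and if they are not, the p-values measure technical spread.

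Unfolded proteins in the ER are sensed by 3 membrane proteins. PERK (Eif2ak3) phosphorylates the translation factor eIF2alpha, which slows most protein synthesis but raises translation of ATF4; ATF4 then induces stress genes and enzymes that make serine, one-carbon units, proline and asparagine, and other kinases that sense amino acid loss or viral RNA use the same route. IRE1 (Ern1) cuts Xbp1 mRNA so that it encodes an active transcription factor, and ATF6 is released from the ER membrane by proteolysis, and both induce chaperones and the machinery that removes misfolded proteins. ATF4 and ATF6 are controlled mostly after transcription, so their mRNA levels do not measure their activity. In the pancreas, the secretory acinar cells depend on the XBP1 route, and collagen-secreting fibroblasts also carry a high load of ER proteins.

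The sequences of 4 promoters are shown because they carry the short motifs through which these factors are known to bind. Promoters of 37 of the 40 genes were found in RefSeq (GRCm38.p6), each covering 250 bases before and 50 after the start of the gene; Atf6, Hyou1 and Manf are not in that table. The ER stress response element (ERSE, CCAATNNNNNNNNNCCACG) was searched on both strands and was held by 8 of 17 XBP1/ATF6 targets (Hspa5, Hsp90b1, Calr, Canx, Pdia6, Dnajc3, Creld2 and Syvn1), by 0 of 15 ATF4 targets, and by 39 of 32851 promoters of the same length, or 0.119%. ERSE-II (ATTGG and CCACG with any 1 base between them) was held by Herpud1 and Dnajb11 and by 0.037% of all promoters. The C/EBP-ATF response element (CARE, TGATGNAA) was held by 4 of 15 ATF4 targets (Asns, Chac1, Pycr1 and Trib3), by the XBP1/ATF6 target Herpud1 and by 3.969% of all promoters. The core of the unfolded protein response element (TGACGTGG) was held by 0 of the 37 genes and by 0.676% of all promoters. None of these motifs overlaps another in the 4 sequences below, and a match is a description of the letters, not evidence of binding. The 250 bases before the start are printed 5′ to 3′ on the strand of the gene, with the fixed letters of the ERSE, ERSE-II or CARE in capitals; a motif on the opposite strand appears as its reverse complement.
Hspa5 (chr2:34771840-34772089, plus strand): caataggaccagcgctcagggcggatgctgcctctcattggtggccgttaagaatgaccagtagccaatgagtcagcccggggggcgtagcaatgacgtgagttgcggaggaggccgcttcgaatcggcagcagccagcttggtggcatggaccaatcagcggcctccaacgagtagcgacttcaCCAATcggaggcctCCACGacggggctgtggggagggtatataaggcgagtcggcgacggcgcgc
Hsp90b1 (chr10:86705445-86705694, minus strand): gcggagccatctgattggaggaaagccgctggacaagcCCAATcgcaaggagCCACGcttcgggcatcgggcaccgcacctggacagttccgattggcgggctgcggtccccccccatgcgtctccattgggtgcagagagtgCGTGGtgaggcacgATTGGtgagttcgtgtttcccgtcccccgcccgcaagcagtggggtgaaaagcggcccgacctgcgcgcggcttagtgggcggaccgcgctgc
Herpud1 (chr8:94386179-94386428, plus strand): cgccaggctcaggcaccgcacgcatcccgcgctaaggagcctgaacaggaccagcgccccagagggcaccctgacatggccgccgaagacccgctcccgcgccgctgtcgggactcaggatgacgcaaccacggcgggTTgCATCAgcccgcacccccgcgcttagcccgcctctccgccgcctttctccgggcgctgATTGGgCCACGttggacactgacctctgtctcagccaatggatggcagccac
Asns (chr6:7693210-7693459, minus strand): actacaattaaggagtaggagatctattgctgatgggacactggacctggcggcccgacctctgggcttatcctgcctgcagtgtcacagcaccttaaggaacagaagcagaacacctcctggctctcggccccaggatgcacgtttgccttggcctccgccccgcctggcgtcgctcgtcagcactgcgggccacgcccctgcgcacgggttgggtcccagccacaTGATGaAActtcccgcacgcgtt
The Hsp90b1 stretch holds the ERSE on both strands, and the Herpud1 stretch holds an ERSE-II on its own strand and a CARE on the opposite one.

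The site at which IRE1 acts is shown because Xbp1 had the widest spread of the 40 genes among EpCAM+ libraries. In the GENCODE M21 transcript Xbp1-201, bases 815 to 840 are the 26 bases that IRE1 is known to remove, in capitals here, and the same stretch lies in 3 annotated coding transcripts of Xbp1.
Xbp1: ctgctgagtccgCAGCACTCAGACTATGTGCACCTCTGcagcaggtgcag
None of the 4 Xbp1 transcripts in GENCODE M21 is the spliced form, in which the bases on both sides of those 26 are joined. The Xbp1 level given here is therefore a total over these transcripts, with no share of spliced mRNA. Whether a spliced form is among the 10765 deposited transcripts not found in GENCODE M21 was not tested.

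PDPN+ libraries held 30.3 to 48.1 M gene reads and EpCAM+ libraries 39.4 to 75.4 M (M stands for mega). The sum of 10 fibroblast marker genes was 22363 to 41543 counts-per-million (CPM) in PDPN+ libraries, against 18.5 to 270.5 CPM in EpCAM+ libraries. The sum of 9 epithelial markers was 438 to 1802 CPM in PDPN+ libraries, against 19558 to 28871 CPM in EpCAM+ libraries. The labels of both populations thus matched their markers, with reads of epithelial marker genes in every PDPN+ library. The sum of 5 mesothelial markers was 764 to 2684 CPM in PDPN+ libraries, against 749 to 1307 CPM in EpCAM+ libraries. Which cells gave the epithelial marker reads in PDPN+ libraries was not tested. In principal components, PDPN+ vehicle libraries of mice V53175 and V53188 stood apart from the other PDPN+ libraries; they held 12102 and 11924 genes with at least 10 reads, within a range of 11924 to 18602 over PDPN+ libraries. Among EpCAM+ libraries, those of neratinib mouse N53178 and of vehicle mice V53175 and V53176 stood apart. Results that rest on these libraries are given with and without them.

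The 40 genes spanned more than 3 orders of magnitude in PDPN+ libraries, and the chaperone gene Hspa5 was the most abundant in both populations. Levels of different genes are compared here in transcripts-per-million (TPM), which allow for transcript length. Hspa5, which encodes the Hsp70 chaperone BiP that also holds the ER stress sensors inactive, averaged 1792 ± 585 TPM in PDPN+ libraries (SD, n = 8) and 1683 ± 155 TPM in EpCAM+ libraries (SD, n = 11). Next in PDPN+ libraries came Hsp90b1 (708 TPM), Sec61b (601 TPM), Calr (582 TPM), Pdia6 (490 TPM) and Pdia3 (459 TPM). Next in EpCAM+ libraries came Pdia3 (1030 TPM), Pdia6 (660 TPM), Hsp90b1 (557 TPM), Calr (523 TPM) and Ppp1r15a (420 TPM). The lowest means in PDPN+ libraries were those of Trib3 (0.47 TPM), Eif2ak3 (1.18 TPM), Chac1 (1.65 TPM) and Ern1 (2.16 TPM), and in EpCAM+ libraries those of Cebpb (2.56 TPM), Chac1 (3.53 TPM), Eif2ak3 (3.63 TPM) and Ern1 (3.88 TPM). The sensor genes Eif2ak3 and Ern1 therefore sat near the bottom of the set, and genes encoding chaperones and disulfide isomerases at the top.

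**Figure D1:**
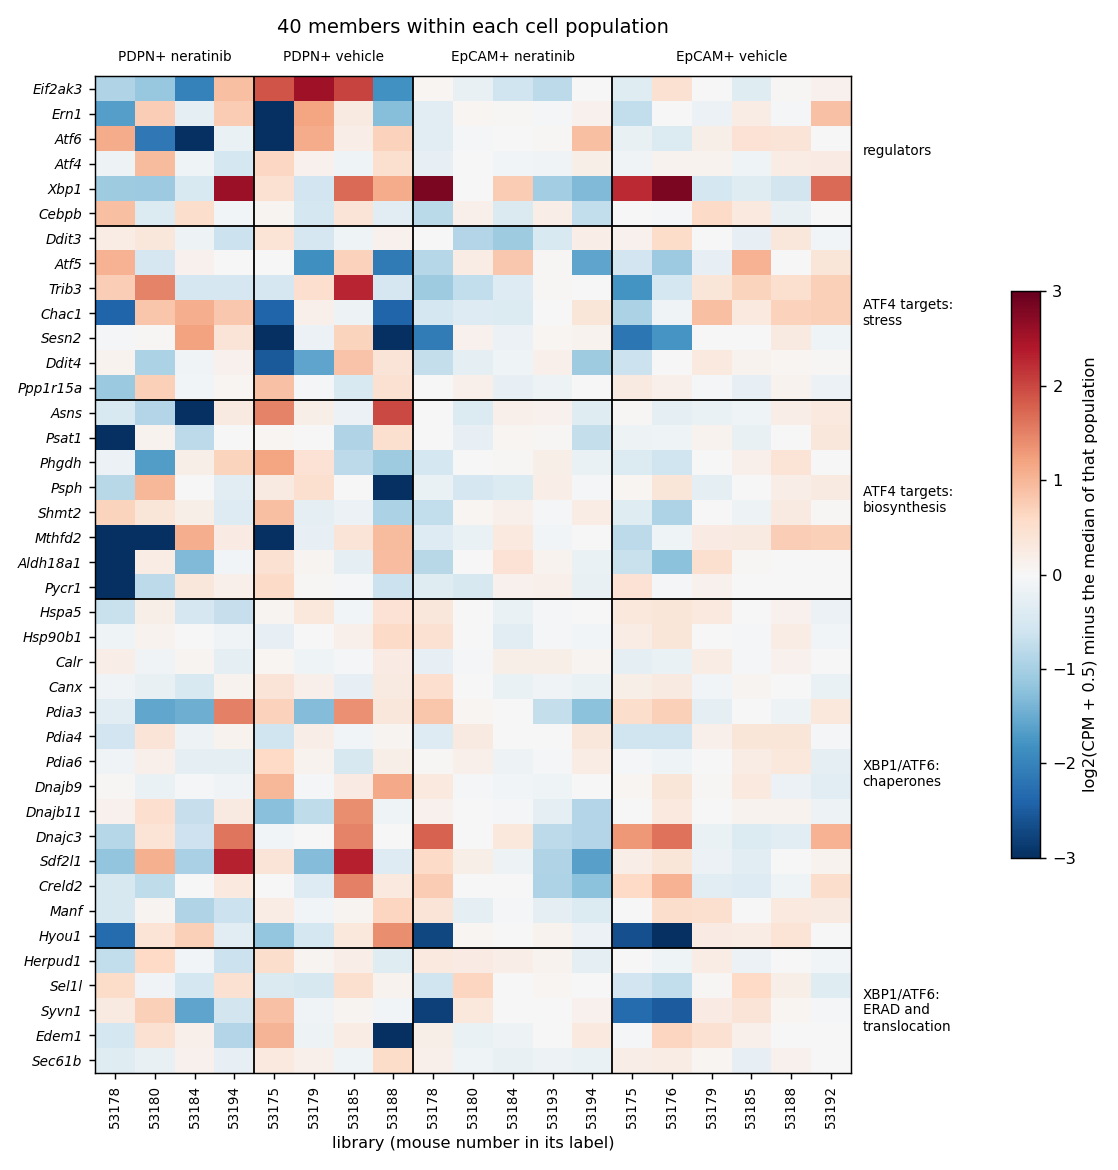
Each column is 1 of the 19 libraries, named by its mouse number, and each row is 1 of the 40 genes, grouped by role; colour gives log2(CPM + 0.5) minus the median of that population. PDPN+ libraries vary in many rows at once, whereas in EpCAM+ libraries the strongest departures are those of neratinib mouse N53178 and of vehicle mice V53175 and V53176.

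The spread between libraries differed widely from gene to gene. The SD of log2 CPM within groups was 0.19 for Calr, the calcium-binding lectin chaperone calreticulin, in both PDPN+ and EpCAM+ libraries. For Hspa5 it was 0.33 in PDPN+ and 0.20 in EpCAM+ libraries. For Xbp1 it was 1.41 in PDPN+ and 1.60 in EpCAM+ libraries, beside a median over genes above 10 CPM of 0.95 in PDPN+ and 0.29 in EpCAM+ libraries. Hyou1, a large Hsp70-like chaperone, was about as variable, at 1.24 in PDPN+ and 1.45 in EpCAM+ libraries. In PDPN+ libraries Atf6 (2.64), Mthfd2 (2.61) and Sesn2 (2.11) were more variable than Xbp1. So the chaperones Hspa5 and Calr were steadier than the typical gene above 10 CPM in both populations, and Xbp1 and Hyou1 more variable. Genes of like abundance were not compared. In PDPN+ libraries Hspa5 averaged 3603 CPM and Calr 1095 CPM, but Hyou1 only 10.3 CPM.

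To ask what neratinib did in CAFs, PDPN+ neratinib libraries were compared with PDPN+ vehicle libraries. None of the 40 genes passed edgeR's quasi-likelihood test with Benjamini-Hochberg adjustment over 14437 genes, and the share of all genes that passed was 0%. At an unadjusted p under 0.05, 4 of 40 had a lower estimate and 0 a higher one, beside 2.29% of all genes: the chaperone gene Hspa5, its co-chaperone gene Dnajb9, the secreted ER protein gene Manf and the asparagine synthetase gene Asns. In DESeq2 and in limma 0 of 40 passed as well. In 0 of 40 were all neratinib libraries beyond all vehicle libraries, beside 2.29% of all genes.

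Asns, the enzyme that makes asparagine and a long-known ATF4 target, stood at 32.1, 23.7, 2.64 and 53.4 CPM in PDPN+ neratinib libraries (mice N53178, N53180, N53184 and N53194), against 124, 49.9, 39.0 and 177 CPM in PDPN+ vehicle libraries (mice V53175, V53179, V53185 and V53188). The groups overlapped at a single neratinib library, that of mouse N53194, and the highest vehicle libraries were those that stood apart. The log2 fold change was -1.83 (SE 0.79), and -0.70 (SE 0.96) without mice V53175 and V53188. Hspa5 stood at 2360, 4217, 2637 and 2313 CPM in PDPN+ neratinib libraries, against 3947, 4690, 3573 and 5083 CPM in PDPN+ vehicle libraries. Here 3 neratinib libraries lay below all vehicle libraries and that of mouse N53180 lay among them. The log2 fold change was -0.60 (SE 0.26), and -0.57 (SE 0.32) without mice V53175 and V53188.

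Dnajb9, an ER co-chaperone that keeps IRE1 inactive through BiP, stood at 168, 143, 159 and 154 CPM in PDPN+ neratinib libraries, against 327, 161, 194 and 365 CPM in PDPN+ vehicle libraries. The groups overlapped, the 2 highest vehicle libraries were again those of mice V53175 and V53188, and the log2 fold change of -0.76 (SE 0.31) was -0.23 (SE 0.28) without them. Manf stood at 212, 313, 157 and 190 CPM in PDPN+ neratinib libraries, against 346, 281, 312 and 464 CPM in PDPN+ vehicle libraries. Only the library of neratinib mouse N53180 reached the vehicle range, with a log2 fold change of -0.70 (SE 0.29), and of -0.48 (SE 0.34) without the libraries that stood apart. Without them 0 of 40 genes had an unadjusted p under 0.05, beside 571 of 17667 genes in the same fit, which holds fewer samples. The summed level of 16 genes that respond to tissue dissociation was 14189 to 18941 CPM in PDPN+ neratinib libraries, against 17477 to 20784 CPM in PDPN+ vehicle libraries, and its part in these estimates was not tested. Mitochondrial genes took 12.4 to 19.4% of reads in PDPN+ neratinib libraries, against 6.14 to 17.3% in PDPN+ vehicle libraries. The part of that share in the estimates was not tested either.

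Among the regulators, Atf4 stood at 155, 333, 157 and 119 CPM in PDPN+ neratinib libraries, against 267, 189, 159 and 242 CPM in PDPN+ vehicle libraries, and the groups overlapped widely (log2 fold change -0.18, SE 0.36). Xbp1 stood at 44.4, 43.5, 67.7 and 549 CPM in PDPN+ neratinib libraries, against 127, 61.8, 305 and 202 CPM in PDPN+ vehicle libraries. A single neratinib library, that of mouse N53194, was higher than all others, and the other 3 lay near or below the lowest vehicle library, with a log2 fold change of 0.01 (SE 0.82). The same library also held the highest Dnajc3 level (335 CPM) and the highest Pdia3 level (1960 CPM) of PDPN+ neratinib libraries. Eif2ak3 stood at 0.694, 0.529, 0.0539 and 3.71 CPM in PDPN+ neratinib libraries, against 7.76, 12.5, 8.57 and 0.136 CPM in PDPN+ vehicle libraries. It stood below 1 CPM in 4 libraries, and the log2 fold change of -2.55 had an SE of 1.68. Cebpb, a transcription factor that pairs with ATF4, had a log2 fold change of 0.37 (SE 0.60).

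Ddit3, the ATF4-induced factor CHOP, stood at 96.8, 106, 75.4 and 53.0 CPM in PDPN+ neratinib libraries, against 110, 58.7, 76.0 and 91.2 CPM in PDPN+ vehicle libraries, with a log2 fold change of -0.04 (SE 0.36). Herpud1, a membrane protein of ER-associated degradation (ERAD), stood at 124, 318, 198 and 134 CPM in PDPN+ neratinib libraries, against 301, 221, 242 and 163 CPM in PDPN+ vehicle libraries, with a log2 fold change of -0.27 (SE 0.35). For both genes the groups overlapped over most of their range. Atf5, a transcription factor related to ATF4, had an estimate of 0.64 (SE 0.71). Chac1, which breaks down glutathione, had 1.65 (SE 2.11) at levels of at most 5.12 CPM, and Aldh18a1, which starts proline synthesis, had -1.0 (SE 0.67). Sec61b, a subunit of the translocation channel, had -0.41 (SE 0.26).

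In EpCAM+ cells, neratinib libraries were compared with vehicle libraries in the same way. None of the 40 genes passed edgeR's quasi-likelihood test with Benjamini-Hochberg adjustment over 17200 genes, and the share of all genes that passed was 0%. At an unadjusted p under 0.05, 2 of 40 had a lower estimate and 0 a higher one, beside 3.05% of all genes, and the 2 were Ddit3 and Manf. In 0 of 40 were the groups apart, beside 0.221% of all genes, and 0 of 40 passed in DESeq2 or limma.

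Ddit3 stood at 28.6, 15.2, 13.3, 20.5 and 32.8 CPM in EpCAM+ neratinib libraries (mice N53178, N53180, N53184, N53193 and N53194), against a lowest value of 24.0, a median of 29.8 and a highest value of 41.7 CPM in EpCAM+ vehicle libraries. The 3 lowest neratinib libraries lay below all vehicle libraries and the other two among them, with a log2 fold change of -0.53 (SE 0.24). Manf stood at 180, 115, 134, 116 and 105 CPM in EpCAM+ neratinib libraries, against 137 to 200 CPM in EpCAM+ vehicle libraries, with a median of 168 CPM. Here 4 neratinib libraries lay below the whole vehicle range and that of mouse N53178 within it. The log2 fold change was -0.38 (SE 0.17), and -0.52 (SE 0.14) without the 3 libraries that stood apart. Without those libraries 4 genes had an unadjusted p under 0.05, namely Trib3, Chac1, Mthfd2 and Manf, beside 797 of 16942 genes in the same fit, and none passed with adjustment.

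Atf4 was steady in EpCAM+ cells, at 78.7, 93.7, 88.6, 86.7 and 106 CPM in neratinib libraries, against 85.5 to 112 CPM in vehicle libraries, with a log2 fold change of -0.15 (SE 0.11). Hspa5 stood at 2718, 2159, 1872, 2126 and 2145 CPM in EpCAM+ neratinib libraries, against 1923 to 2782 CPM in EpCAM+ vehicle libraries, with a log2 fold change of -0.16 (SE 0.12). Asns stood at 108, 80.6, 119, 117 and 83.8 CPM in EpCAM+ neratinib libraries, against 89.6 to 133 CPM in EpCAM+ vehicle libraries, with -0.11 (SE 0.16). For these 3 genes the groups overlapped. Herpud1 stood at 421, 401, 393, 369 and 285 CPM in EpCAM+ neratinib libraries, against 301 to 395 CPM in EpCAM+ vehicle libraries, with 0.14 (SE 0.12). Xbp1 stood at 629, 89.1, 152, 42.7 and 35.2 CPM in EpCAM+ neratinib libraries, against 60.6 to 633 CPM in EpCAM+ vehicle libraries with a median of 179 CPM. Its highest neratinib library, that of mouse N53178, matched the highest vehicle libraries, and its log2 fold change of -0.46 had an SE of 0.88.

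The genes next in order of unadjusted p within each role did not pass. Among ATF4 targets they were Psph, the last enzyme of serine synthesis (log2 fold change -0.31, SE 0.17), Pycr1, which completes proline synthesis in mitochondria (-0.26, SE 0.17), and Chac1 (-0.63, SE 0.36). Among regulators they were Cebpb (-0.56, SE 0.34) and Eif2ak3 (-0.32, SE 0.21). Among XBP1/ATF6 targets they were the co-chaperone gene Dnajb11 (-0.26, SE 0.17), Sec61b (-0.20, SE 0.11) and Edem1, which marks misfolded glycoproteins for degradation (-0.22, SE 0.17).

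**Figure D2:**
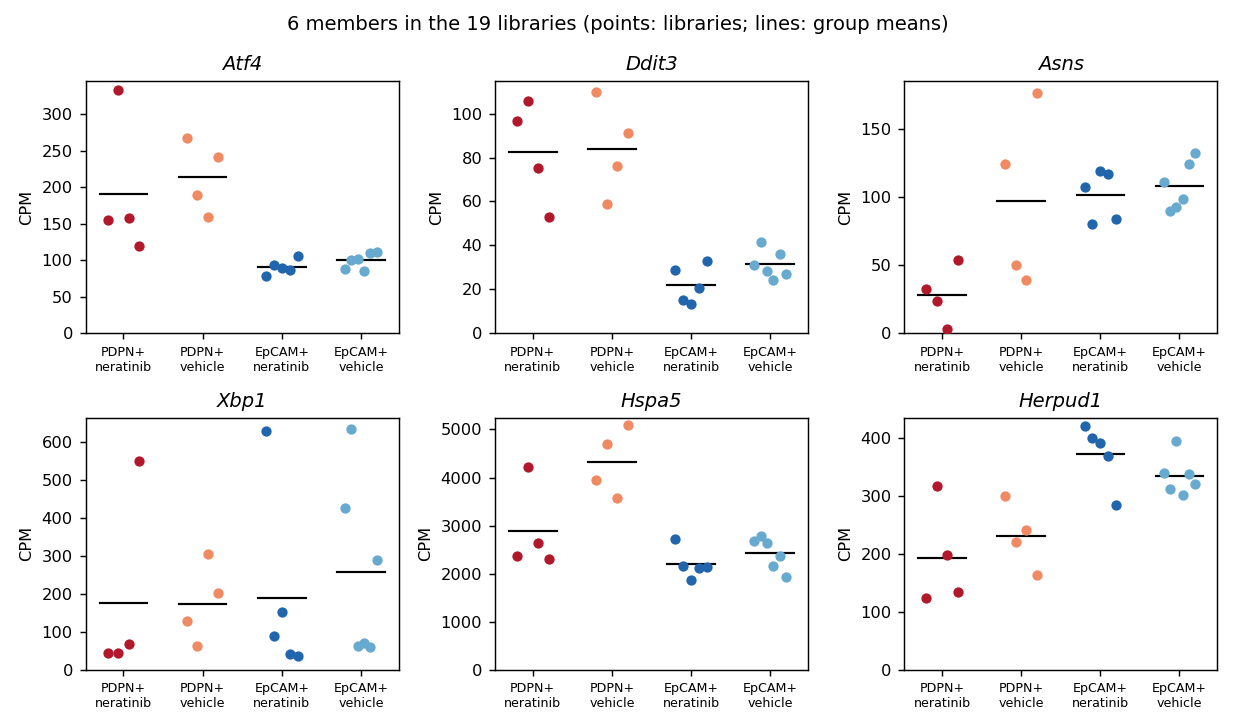
Points are libraries and lines group means, in CPM, for Atf4, Ddit3, Asns, Xbp1, Hspa5 and Herpud1, with the neratinib group left of the vehicle group in each population. The PDPN+ vehicle libraries reach 177 CPM for Asns and 5083 CPM for Hspa5, and Xbp1 runs from 35.2 to 633 CPM within EpCAM+ libraries.

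Whether neratinib acted differently in the populations was tested over all 19 libraries, by subtracting the effect in EpCAM+ cells from the effect in PDPN+ cells. This fit takes a single dispersion per gene for both populations. The median SD of log2 CPM within groups was 0.95 in PDPN+ and 0.29 in EpCAM+ libraries. For Eif2ak3 the SE was 1.27 here, against 1.68 for PDPN+ cells alone, so SEs and unadjusted p-values of this edgeR test may be too small. By edgeR's quasi-likelihood test with Benjamini-Hochberg adjustment 0 of 40 genes passed, beside 0.0662% of all genes, and at an unadjusted p under 0.05 there were 2 of 40, beside 11.2% of all genes. These were Asns (-1.71, SE 0.74) and Dnajb9 (-0.70, SE 0.30). Without the libraries that stood apart they were -0.51 (SE 0.89) for Asns and -0.15 (SE 0.24) for Dnajb9. The estimates for Hspa5 (-0.45, SE 0.25), Herpud1 (-0.42, SE 0.33), Ddit3 (0.49, SE 0.43), Atf4 (-0.03, SE 0.34), Xbp1 (0.45, SE 1.33), Sec61b (-0.22, SE 0.24) and Aldh18a1 (-1.09, SE 0.72) were each less than 2 SE from 0. So were those for Eif2ak3 (-2.25, SE 1.27), Cebpb (0.92, SE 0.64) and Chac1 (2.25, SE 1.80). The neratinib effects were thus not shown to differ between the populations for any of the 40 genes.

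**Figure D3:**
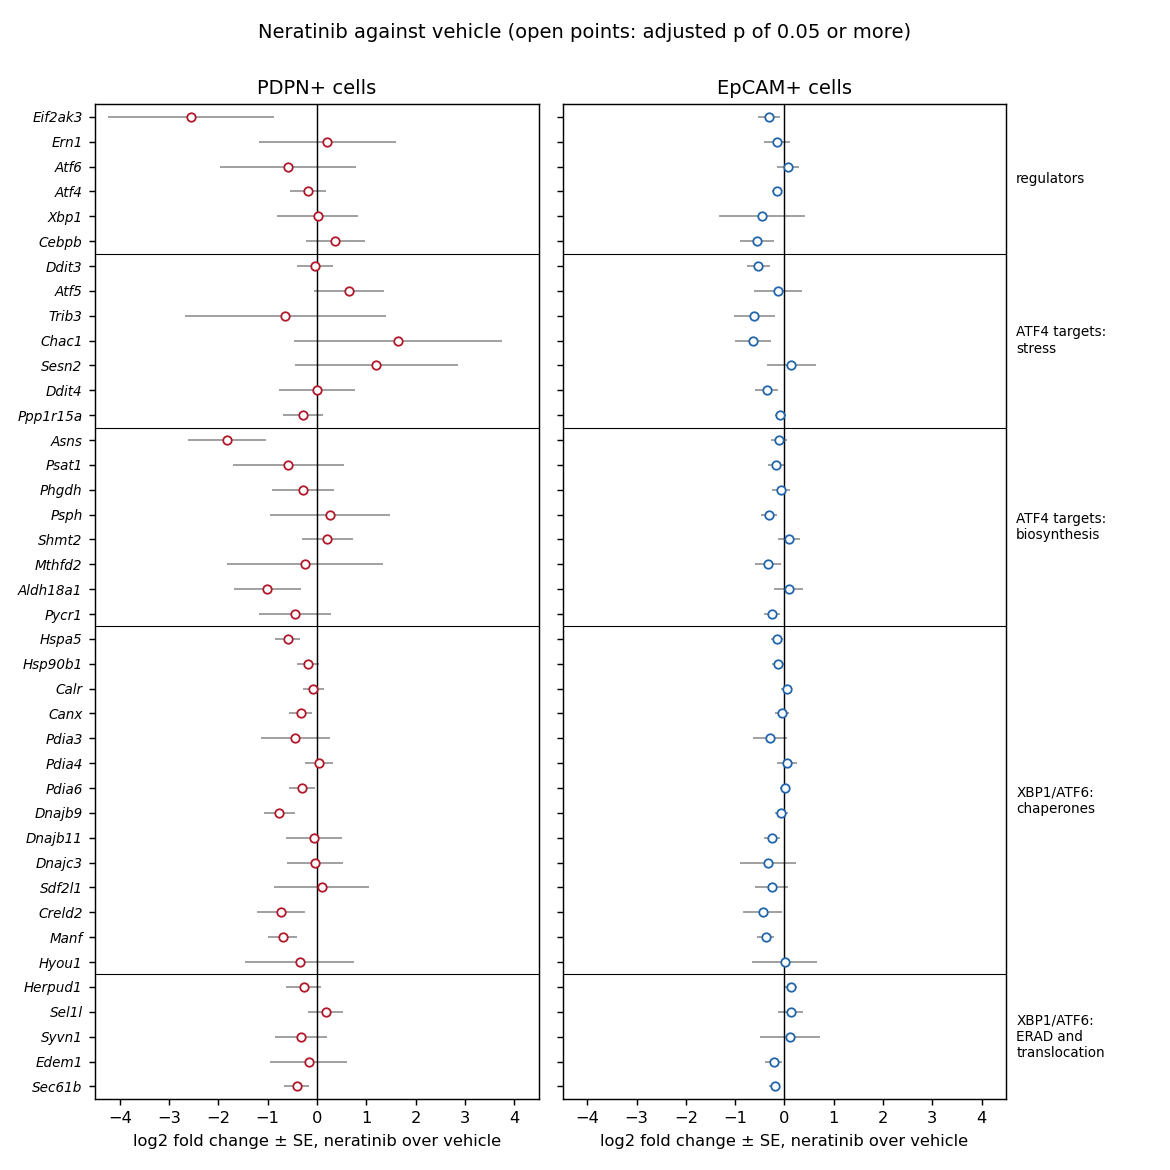
Log2 fold changes of neratinib over vehicle with SE for the 40 genes in PDPN+ and in EpCAM+ cells; all points are open, since 0 of 40 passed in either. In PDPN+ cells 29 of 40 estimates lie below 0, with much longer error bars than in EpCAM+ cells, where 29 of 40 also lie below 0.

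ATF4 targets and XBP1/ATF6 targets were set side by side under neratinib, without a test over the lists. In PDPN+ cells 10 of 15 ATF4 targets had a negative log2 fold change, with a median of -0.25, and 16 of 19 XBP1/ATF6 targets did, with a median of -0.30, beside a median of 0.06 over all genes. Over 19 alternative settings the XBP1/ATF6 median stayed negative, between -0.47 and -0.14, whereas the ATF4 median lay between -0.42 and 0.07. In EpCAM+ cells 12 of 15 ATF4 targets were negative, with a median of -0.17, and 12 of 19 XBP1/ATF6 targets, with a median of -0.12, beside -0.0009 over all genes. Over 22 alternatives the ATF4 median lay between -0.27 and -0.09 and the XBP1/ATF6 median between -0.25 and -0.05. Both groups of targets thus leaned slightly downward, with 0 of 40 genes passing, but not in every role. In PDPN+ cells the median was -0.0006 for ATF4 stress targets, -0.36 for synthesis enzymes, -0.32 for chaperones and -0.27 for degradation and translocation genes. In EpCAM+ cells these medians were -0.36, -0.14, -0.14 and 0.11. For the difference of the neratinib effects, the medians were 0.07 for ATF4 targets and -0.22 for XBP1/ATF6 targets, and 0.16 and 0.0033 without the libraries that stood apart.

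The populations themselves differed in many of these genes: Cebpb, Atf4, Ddit3, Sec61b and several chaperone genes were higher in PDPN+ cells, and Trib3, Hyou1, Ddit4, Phgdh and Asns lower. By edgeR's quasi-likelihood test with Benjamini-Hochberg adjustment, 20 of 40 genes differed between PDPN+ and EpCAM+ cells, beside 49.3% of all genes. Of these, 11 were higher in PDPN+ cells, beside 24.3% of all genes, and 9 were lower, beside 25% of all genes. Each share was near that of all genes, so the count of differing genes was not itself particular to the set. By CPM, every PDPN+ library lay above every EpCAM+ library in 6 genes, beside 7.52% of all genes, and below in 1 gene, beside 11.6%. When the mouse was added as a block for the 8 mice sampled in both populations, 16 of 40 passed, beside 35.6% of all genes, 9 higher and 7 lower. Since the libraries are bulk RNA, fewer cells of a type and less RNA per cell cannot be told apart. PDPN+ libraries also gave 6.14 to 19.4% of their reads to mitochondrial genes, against 2.15 to 2.89% in EpCAM+ libraries, and the part of that gap in these differences was not tested. The dissociation genes summed to 14189 to 20784 CPM in PDPN+ libraries, against 13209 to 18301 CPM in EpCAM+ libraries, and their part was not tested either.

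Among the regulators Cebpb and Atf4 were higher in PDPN+ cells and the other 4 did not pass. Cebpb ranged from 17.3 to 47.5 CPM, with a median of 25.3 CPM, in PDPN+ libraries, against 0.562 to 2.25 CPM with a median of 1.35 CPM in EpCAM+ libraries. The ranges were far apart, and the log2 difference was 4.46 (SE 0.35, adjusted p = 6.4e-09), the largest of the set. Atf4 ranged from 119 to 333 CPM, with a median of 174 CPM, in PDPN+ libraries, against 78.7 to 112 CPM with a median of 93.7 CPM in EpCAM+ libraries. In CPM each PDPN+ library lay above each EpCAM+ library, and the log2 difference was 1.09 (SE 0.17, adjusted p = 3.1e-05). In TPM the Atf4 ranges overlapped, at 87.1 to 220 TPM in PDPN+ and 72.3 to 111 TPM in EpCAM+ libraries. Xbp1 ranged from 43.5 to 549 CPM in PDPN+ libraries, with a median of 97.4 CPM, against 35.2 to 633 CPM with a median of 89.1 CPM in EpCAM+ libraries, and did not pass at -0.33 (SE 0.67). Eif2ak3 (-1.61, SE 0.66, adjusted p = 0.050), Atf6 (-0.71, SE 0.67) and Ern1 (-0.11, SE 0.61) did not pass either.

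Among the 7 ATF4 stress targets, Ddit3 and Atf5 were higher in PDPN+ cells, Trib3 and Ddit4 lower, and Sesn2, Chac1 and Ppp1r15a did not pass. Ddit3 ranged from 53.0 to 110 CPM in PDPN+ libraries, against 13.3 to 41.7 CPM in EpCAM+ libraries, with a log2 difference of 1.66 (SE 0.22). The ranges did not overlap in either treatment. Atf5 averaged 39.6 ± 25.0 CPM in PDPN+ libraries (SD, n = 8) and 9.36 ± 5.17 CPM in EpCAM+ libraries (SD, n = 11), a log2 difference of 2.05 (SE 0.44). Trib3, a pseudokinase that binds AKT and ATF4, had at most 2.97 CPM in PDPN+ libraries and no read in 4 of them, against 3.32 to 21.2 CPM in EpCAM+ libraries. Its log2 difference was -4.11 (SE 1.09, adjusted p = 0.0043), the lowest of the set. Ddit4, an inhibitor of mTORC1, averaged 32.5 ± 19.7 CPM in PDPN+ libraries and 113 ± 29.8 CPM in EpCAM+ libraries, a log2 difference of -1.77 (SE 0.36). Genes of the same branch therefore ran in opposite directions between the populations.

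The 2 transcription factor genes Ddit3 and Atf5 stood high in the CAFs while Trib3, a gene that CHOP and ATF4 are known to induce together, was close to 0 there. Ppp1r15a, the phosphatase subunit GADD34 that restores translation, was abundant in both, at 558 ± 229 CPM in PDPN+ libraries and 583 ± 71.9 CPM in EpCAM+ libraries. Sesn2, a sensor of leucine, had 14.4 ± 11.1 CPM in PDPN+ libraries and 20.9 ± 9.80 CPM in EpCAM+ libraries. Chac1 had 2.21 ± 2.09 CPM in PDPN+ libraries and 3.49 ± 1.59 CPM in EpCAM+ libraries. For these 3 genes the ranges overlapped.

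Of the 8 amino acid synthesis enzymes, Phgdh and Asns were lower in PDPN+ cells, Pycr1 was higher, and 5 did not pass. Phgdh, the first enzyme of serine synthesis, ranged from 18.0 to 133 CPM with a median of 59.2 CPM in PDPN+ libraries, against 105 to 209 CPM with a median of 158 CPM in EpCAM+ libraries. A single PDPN+ library, that of vehicle mouse V53175, reached the EpCAM+ range, and the log2 difference was -1.27 (SE 0.31, adjusted p = 0.0021). Asns ranged from 2.64 to 177 CPM with a median of 44.4 CPM in PDPN+ libraries, against 80.6 to 133 CPM with a median of 108 CPM in EpCAM+ libraries. Both PDPN+ libraries inside or above the EpCAM+ range were the vehicle libraries that stood apart, those of mice V53175 and V53188. The log2 difference was -1.01 (SE 0.38, adjusted p = 0.035), and -1.65 (SE 0.48, adjusted p = 0.013) without the libraries that stood apart, but with mouse as a block the adjusted p was 0.062. Pycr1 averaged 37.9 ± 18.8 CPM in PDPN+ libraries and 19.4 ± 3.50 CPM in EpCAM+ libraries (log2 difference 0.96, SE 0.34), and its adjusted p with the block was 0.26.

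The other enzymes had lower estimates in PDPN+ cells that did not pass. Psat1, the second step of serine synthesis, had -1.07 (SE 0.52), Shmt2, which makes glycine and one-carbon units in mitochondria, -0.52 (SE 0.24), and Mthfd2, which carries the one-carbon units on, -0.96 (SE 0.74). Aldh18a1 had -0.67 (SE 0.36) and Psph -0.17 (SE 0.53). In all, 7 of 8 enzyme genes had negative estimates, with a median log2 difference of -0.81, beside -0.13 over all genes, and 2 of the 8 passed as lower, beside 25% of all genes.

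Of the 14 chaperone and folding genes, Manf, Hsp90b1, Calr and Hspa5 were higher in PDPN+ cells, and Hyou1, Dnajb11 and Canx lower. Hsp90b1, the ER form of Hsp90, ranged from 1528 to 2667 CPM in PDPN+ libraries, against 787 to 1346 CPM in EpCAM+ libraries, a log2 difference of 0.86 (SE 0.12). Calr ranged from 887 to 1297 CPM in PDPN+ libraries, against 584 to 831 CPM in EpCAM+ libraries, a log2 difference of 0.62 (SE 0.10). For both, every PDPN+ library lay above every EpCAM+ library in CPM, but the ranges overlapped in TPM. Those of Hsp90b1 were 525 to 949 TPM in PDPN+ and 450 to 701 TPM in EpCAM+ libraries. Those of Calr were 501 to 713 TPM in PDPN+ and 396 to 619 TPM in EpCAM+ libraries. Manf averaged 285 ± 98.6 CPM in PDPN+ libraries and 151 ± 33.2 CPM in EpCAM+ libraries, a log2 difference of 0.91 (SE 0.15). Hspa5 averaged 3603 ± 1070 CPM in PDPN+ libraries and 2323 ± 327 CPM in EpCAM+ libraries, a log2 difference of 0.61 (SE 0.12), but only 0.03 on the log2(TPM + 1) scale, where it did not pass. There the median of all genes was itself -0.63, so relative to all genes Hspa5 stayed higher.

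Hyou1 was the gene that ran most strongly against the other chaperones. It ranged from 1.42 to 24.6 CPM with a median of 9.36 CPM in PDPN+ libraries, against 6.96 to 84.1 CPM with a median of 62.8 CPM in EpCAM+ libraries. The EpCAM+ libraries that overlapped with PDPN+ libraries were the 3 that stood apart, at 6.96, 9.08 and 9.60 CPM, while the other 8 lay between 56.0 and 84.1 CPM. The log2 difference was -2.35 (SE 0.59, adjusted p = 0.0027), and -2.98 (SE 0.47) without the libraries that stood apart. Dnajb11, a BiP co-chaperone, averaged 69.5 ± 44.1 CPM in PDPN+ libraries and 122 ± 22.2 CPM in EpCAM+ libraries (log2 difference -0.79, SE 0.28). Canx, the membrane-bound partner of calreticulin, averaged 794 ± 155 CPM in PDPN+ libraries and 989 ± 161 CPM in EpCAM+ libraries. Its log2 difference of -0.33 (SE 0.12) became 0.34 with GC offsets. There the median of all genes was itself 0.51, so relative to all genes Canx stayed lower. Its adjusted p with mouse as a block was 0.051.

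The folding genes that did not pass were Pdia3 (-0.52, SE 0.40), Pdia4 (0.20, SE 0.17) and Pdia6 (0.10, SE 0.13), which are disulfide isomerases, Dnajb9 (0.15, SE 0.15), Dnajc3 (0.90, SE 0.43), which inhibits PERK, Sdf2l1 (-0.95, SE 0.50) and Creld2 (0.22, SE 0.31). Their ranges overlapped between the populations. Of the 5 genes of ERAD and translocation, Edem1 and Sec61b were higher in PDPN+ cells and Sel1l and Herpud1 lower, while Syvn1 did not pass. Sec61b ranged from 175 to 331 CPM in PDPN+ libraries, against 84.5 to 117 CPM in EpCAM+ libraries, with no overlap and a log2 difference of 1.23 (SE 0.12, adjusted p = 9.4e-08). Edem1 averaged 33.6 ± 19.7 CPM in PDPN+ libraries and 12.6 ± 2.51 CPM in EpCAM+ libraries, a log2 difference of 1.42 (SE 0.37), with an adjusted p of 0.14 under the block.

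Sel1l and Syvn1 encode the adaptor and the ubiquitin ligase of 1 complex, and both had lower estimates in PDPN+ cells. Sel1l averaged 125 ± 39.3 CPM in PDPN+ libraries and 223 ± 71.6 CPM in EpCAM+ libraries, a log2 difference of -0.85 (SE 0.22). Syvn1 averaged 57.7 ± 26.2 CPM in PDPN+ libraries and 121 ± 64.1 CPM in EpCAM+ libraries, with -1.08 (SE 0.44, adjusted p = 0.051). Without the libraries that stood apart Syvn1 passed, at -1.65 (SE 0.30, adjusted p = 0.00069). Herpud1, which joins that complex, ranged from 124 to 318 CPM in PDPN+ libraries, against 285 to 421 CPM in EpCAM+ libraries, a log2 difference of -0.74 (SE 0.17, adjusted p = 0.0012). The PDPN+ libraries of neratinib mouse N53180 and vehicle mouse V53175 reached the lower end of the EpCAM+ range.

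**Figure D4:**
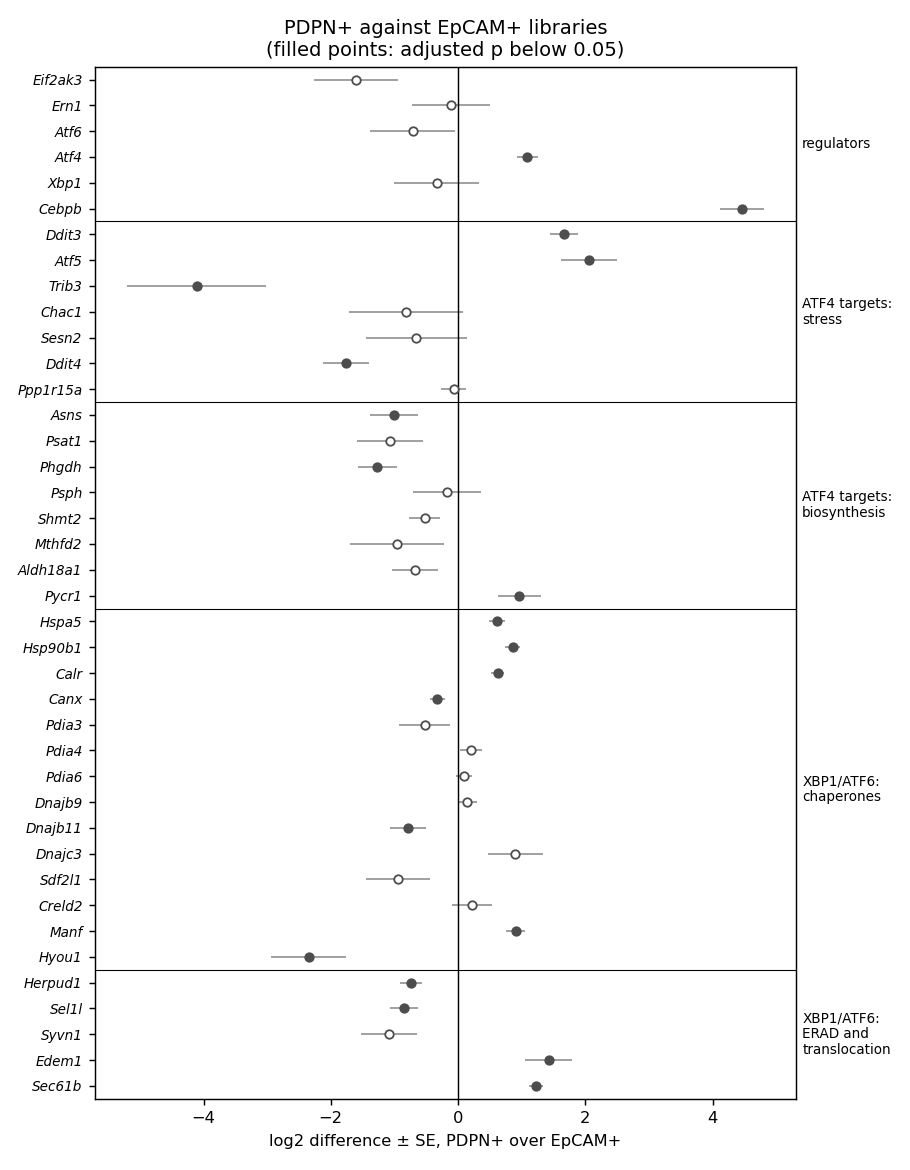
Log2 differences of PDPN+ over EpCAM+ cells with SE for the 40 genes by role; filled points passed at an adjusted p below 0.05. The points run from -4.11 for Trib3 to 4.46 for Cebpb, with 11 filled points above 0 and 9 below.

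ATF4 targets had lower log2 differences of PDPN+ over EpCAM+ cells than XBP1/ATF6 targets did, which is described here without a test. Of 15 ATF4 targets 3 were higher and 4 lower in PDPN+ cells, with 12 negative estimates and a median log2 difference of -0.67. Of 19 XBP1/ATF6 targets 6 were higher and 5 lower, with 8 negative estimates and a median of 0.15, beside -0.13 over all genes. Of all genes 24.3% were higher and 25% lower, so the counts of genes that passed were near the background in both sets. Among the XBP1/ATF6 targets the median was 0.17 over the 14 chaperone and folding genes and -0.74 over the 5 genes of degradation and translocation. Without the libraries that stood apart it was -0.11 over all 19 of them and -0.88 over the ATF4 targets. Relative to the median of all genes, the ATF4 median was -0.54, and lay between -0.89 and -0.31 over 30 alternatives. The XBP1/ATF6 median was 0.27 above that of all genes, between -0.01 and 0.72 over the same alternatives, and lowest without the libraries that stood apart. Some settings shift all genes together: the median of all genes was 0.51 with GC offsets and -0.63 on log2(TPM + 1). Leaving out the genes known to be induced by more than 1 branch gave medians of -0.82 for 13 ATF4 targets and 0.15 for 17 XBP1/ATF6 targets.

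The same comparison within each library took the mean log2(CPM + 0.5) of the 15 ATF4 targets minus that of the 19 XBP1/ATF6 targets. This difference was -3.18 ± 0.42 in PDPN+ libraries (SD, n = 8; range -3.74 to -2.61) and -2.43 ± 0.27 in EpCAM+ libraries (SD, n = 11; range -2.91 to -2.13). The ranges overlapped, through the PDPN+ libraries of neratinib mice N53184 and N53194 and vehicle mouse V53179, and the EpCAM+ libraries of neratinib mice N53178 and N53180 and vehicle mice V53175 and V53176. The ATF4 mean was 4.45 ± 0.45 in PDPN+ and 5.30 ± 0.28 in EpCAM+ libraries, while the XBP1/ATF6 mean was 7.63 ± 0.30 in PDPN+ and 7.72 ± 0.13 in EpCAM+ libraries. The XBP1/ATF6 means thus lay within 1 SD of each other, and the ATF4 means did not. A mean of logs is pulled down by values near 0 in single libraries. In PDPN+ libraries the lowest value was 0 CPM for Trib3, Chac1 and Sesn2, 0.0731 CPM for Psat1, 0.0678 CPM for Psph and 0.0315 CPM for Mthfd2. Among XBP1/ATF6 targets the lowest value there was 1.42 CPM, for Hyou1. The part of such low values in the gap between the populations was not tested. By treatment the difference was -3.07 ± 0.44 in PDPN+ neratinib and -3.30 ± 0.42 in PDPN+ vehicle libraries (SD, n = 4 each). It was -2.46 ± 0.32 in EpCAM+ neratinib (SD, n = 5) and -2.40 ± 0.25 in EpCAM+ vehicle libraries (SD, n = 6), so treatments differed by less than the spread between libraries.

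**Figure D5:**
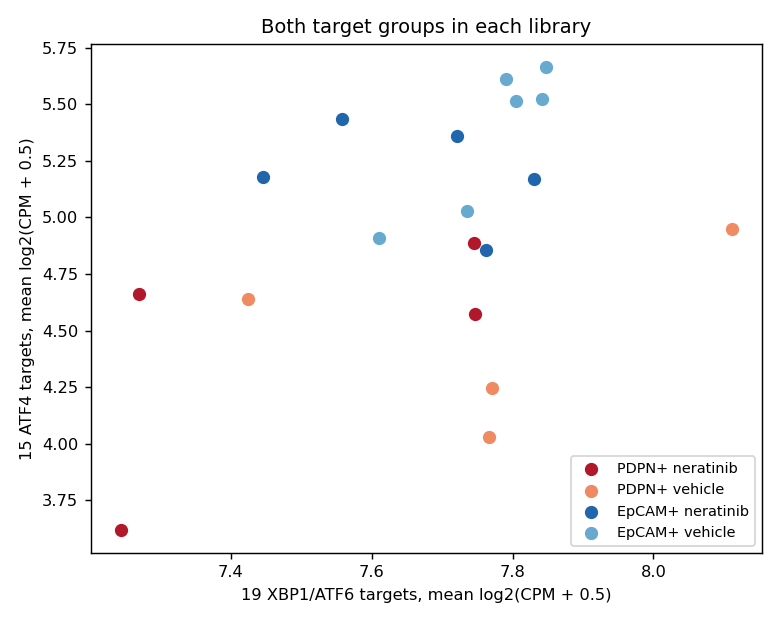
Each point is a library, with the mean log2(CPM + 0.5) of 19 XBP1/ATF6 targets on the horizontal axis and of 15 ATF4 targets on the vertical axis. PDPN+ libraries lie lower on the vertical axis (mean 4.45) than EpCAM+ libraries (5.30), at similar horizontal positions (7.63 and 7.72).

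Within EpCAM+ cells the libraries of neratinib mouse N53178 and of vehicle mice V53175 and V53176 differed from the other 8 in several of these genes; they were picked by a principal component over all genes, so the values are a description. Xbp1 stood at 425 to 633 CPM in these 3 libraries, against 35.2 to 289 CPM in the other 8, Dnajc3 at 138 to 189 CPM against 30.0 to 114 CPM, and Pdia3 at 1684 to 2072 CPM against 500.2 to 1468 CPM. These genes ran high in the 3 libraries. Hyou1 stood at 6.96 to 9.60 CPM in these libraries, against 56.0 to 84.1 CPM in the others, Syvn1 at 19.9 to 28.3 CPM against 137 to 187 CPM, and Sesn2 at 5.31 to 7.23 CPM against 22.6 to 31.2 CPM. XBP1/ATF6 targets thus ran in both directions in the same libraries. The libraries came from both treatments. The sum of 6 islet cell genes was 623 to 1260 CPM in the 3 libraries, against 41.2 to 356 CPM in the other 8, and the sum of 10 acinar genes was 0.374, 1.97 and 69.9 CPM in the libraries of mice N53178, V53175 and V53176, against 0.359 to 1076 CPM in the others. Chga, one of those islet genes, overlapped at 17.9 to 30.0 CPM against 2.56 to 27.5 CPM. Jun, an immediate early gene that tissue dissociation raises, stood at 969 to 1712 CPM in the 3 libraries, against 131 to 892 CPM in the other 8. From the same list of dissociation genes, Ier2 (826 to 1055 CPM against 53.0 to 882 CPM) and Hspb1 (44.8 to 94.0 CPM against 3.93 to 63.7 CPM) overlapped. The sum of 16 dissociation genes, Jun among them, was 13245, 18301 and 14073 CPM in the libraries of mice N53178, V53175 and V53176. In the other 8 libraries that sum was 13209 to 16385 CPM, so only the library of mouse V53175 lay above them. Actb, the cytoplasmic actin gene, stood at 3504 to 3826 CPM against 5420 to 9268 CPM. The part of islet or acinar RNA, of dissociation or of RNA quality in these values was not tested.

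Other genes of the same pathways, 143 in 8 lists, were read in the same fits. For neratinib 0 passed in PDPN+ cells (140 tested), in EpCAM+ cells (142 tested) and for the difference of the effects (143 tested). Beside them, 0%, 0% and 0.0662% of all genes passed. In edgeR's quasi-likelihood test 2, 2 and 9 had an unadjusted p under 0.05, beside 2.29%, 3.05% and 11.2% of all genes. Between the populations 38 were higher and 40 lower in PDPN+ cells, near the 24.3% and 25% of all genes. Among other ER chaperones and folding enzymes 12 of 18 were higher and 1 lower. Fkbp7 (6.11, SE 0.25) and Fkbp14 (4.86, SE 0.31), prolyl isomerases of the ER, led the higher ones in log2 difference, and Dnajc10, a reductase of the ER, was the lower one (-1.62, SE 0.23). Among tRNA synthetases, many of them ATF4 targets, 12 of 21 were lower, led by Wars (-2.54, SE 0.37) and Vars (-1.68, SE 0.41), and 1 higher, Yars (0.69, SE 0.21).

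Beside the counts of each further list, 24.3% of all genes were higher in PDPN+ cells and 25% lower, and a count near these shares is not particular to its list. Of 27 genes of translocation and export 11 were higher in PDPN+ cells, led by Kdelr3, a receptor that returns ER proteins (3.06, SE 0.25), and Ssr3 of the translocon (1.52, SE 0.13), and 4 lower, led by Sec11c (-1.62, SE 0.16) and Rpn1 (-0.54, SE 0.14). Of 20 other serine, one-carbon and proline genes 3 were higher, among them Glud1 (0.95, SE 0.17), and 8 lower, led by Gldc, which cleaves glycine (-5.34, SE 0.97), and Mthfd1l (-2.89, SE 0.78). Of 17 other ATF4 output genes 2 were higher, Aldh1l2 (4.10, SE 1.30) and Cth (2.37, SE 0.92), and 5 lower, led by the cystine transporter gene Slc7a11 (-4.18, SE 0.63) and Cbs (-2.87, SE 0.72). Of 16 genes of eIF2 and its partners 3 were higher and 5 lower. Nupr1 was higher (1.84, SE 0.25), Ppp1r15b (-1.92, SE 0.37) and Eif2s3x (-1.21, SE 0.22) lower, and Jdp2 stood at 4.65 ± 4.34 CPM in PDPN+ libraries and 0.0277 ± 0.0436 CPM in EpCAM+ libraries.

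The same shares of all genes, 24.3% higher and 25% lower, stand beside the counts that follow. Of 15 other ERAD genes 4 were higher in PDPN+ cells, led by Selenos (0.98, SE 0.13) and Ufm1 (0.96, SE 0.30), and 3 lower, led by Erlec1 (-1.25, SE 0.23) and Derl3, at 0.303 ± 0.773 CPM in PDPN+ and 1.97 ± 0.522 CPM in EpCAM+ libraries. Of 9 other sensors and proteases, Creb3l1 (2.75, SE 0.27), which drives collagen secretion, and Creb3 (1.03, SE 0.15) were higher and Atf6b (-2.05, SE 0.71) and Ern2 lower. Ern2, the epithelial form of IRE1, had 0 reads in all PDPN+ libraries, against 67.3 ± 43.1 CPM in EpCAM+ libraries (SD, n = 11). Set against a floor of 3 reads per library, that is at least 614.5-fold lower in PDPN+ cells, a bound that covers counting error only. Plasma cells use XBP1 heavily. Leaving out Sdc1, 8 plasma and B cell genes summed to 0.0631 to 66.2 CPM in PDPN+ libraries, against 0.302 to 1.60 CPM in EpCAM+ libraries. Sdc1 itself was lower in PDPN+ libraries, at 20.03 to 247 CPM, against 706 to 1964 CPM in EpCAM+ libraries. With Sdc1 the sum was 40.7 to 280 CPM in PDPN+ libraries, against 707 to 1966 CPM in EpCAM+ libraries. The direction thus depends on Sdc1, and which cells gave these reads was not tested.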

How the data were processed

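RNA of sorted PDPN+ and EpCAM+ cells was sequenced from low-input libraries, amplified by more PCR cycles where less RNA was at hand, per the labels' protocols. For each transcript the deposited files give estimated counts (not normalised) and TPM (transcripts-per-million), both from Salmon 1.9.0, together with an effective length, per the file headers. The build named is GRCm39/mm39, per the submitters' processing notes. Neither the transcriptome release nor a strand setting is given in the sources used here. Overlapping, antisense and near-identical genes may therefore share reads.

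Identifiers of 137063 of 147828 transcripts were found in GENCODE M21, and their estimated counts were added up for 51707 genes and rounded. That annotation belongs to GRCm38, another build, and served only for names, GC content and transcript sequences; promoter sequences and coordinates are RefSeq's on GRCm38.p6. Transcripts not found, 10765 in number, took 4.07 to 8.96% of reads in PDPN+ and 1.77 to 2.26% in EpCAM+ libraries. Gene reads per library are given in M (mega), 30.3 to 75.4 M. Where no read was seen, the floor was 3 reads, for counting error alone, because PCR duplicates cannot be told from separate molecules here.

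R 4.3.3 and edgeR 4.0.16 were used for the main test, a robust quasi-likelihood fit after TMM scaling and filterByExpr, with Benjamini-Hochberg adjustment over all genes tested and a threshold of 0.05. Each population was fitted alone for neratinib against vehicle, because the populations differ in spread. For the difference of those effects and for the populations, 4 group means over the 19 libraries served. Fits over the 19 libraries take a single dispersion per gene although PDPN+ libraries were more variable, so their SEs may be too small for PDPN+ cells. CPM values share 1 TMM scaling of the 19 libraries. The tests were tried on simulated counts. Alternatives were DESeq2 1.42.0, its size factors, no low-count filter, length offsets, GC offsets, limma 3.58.1 (voom with sample weights; log2(TPM + 1); log2(TPM + 0.1)), 1 fit for all libraries, a digit of a file code as covariate, a block for the mouse, and fits without single libraries or without those that stood apart.

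The members and lists were chosen with earlier results of these data known. Every member is named. The fixed genes Atf4, Ddit3, Asns, Xbp1, Hspa5 and Herpud1 are given in all comparisons, for neratinib also the 2 genes of each role with the smallest unadjusted p, and for the populations up to 4 passing genes per direction and role. Of other pathway lists, up to 2 passing genes per direction are named. A gene that this rule names is not reported here.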

Additional observations from a re-analysis of the deposited data

Results flagged for a closer look

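Single libraries that lay far from the rest of their group were sought in 160 sets of values (40 genes in 4 groups, CPM) with Dixon's criterion. Chance meets it in about 1 of 20 groups of independent, normally distributed values. It was met 14 times, or in 8.75% of the sets. CPM values need not be so distributed and the 40 genes share their libraries, so that share cannot be set against the rate of chance. Of these, 8 were in the EpCAM+ library of neratinib mouse N53178, which stood apart over all genes. There Xbp1 stood at 629 CPM against 35.2 to 152 CPM in the other neratinib libraries, Dnajc3 at 189 CPM against 30.0 to 69.4 CPM, Canx at 1362 CPM against 835 to 964 CPM, Dnajb9 at 219 CPM against 162 to 178 CPM, and Sec61b at 112 CPM against 86.2 to 91.5 CPM. In the same library Hyou1 stood at 9.08 CPM against 56.0 to 67.6 CPM, Syvn1 at 19.9 CPM against 141 to 177 CPM, and Sesn2 at 5.57 CPM against 22.6 to 28.0 CPM.

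In the EpCAM+ library of neratinib mouse N53194, Atf6 stood at 78.0 CPM against 33.3 to 42.5 CPM in the others of its group. In the EpCAM+ library of vehicle mouse V53175, Pycr1 stood at 26.7 CPM against 18.9 to 21.3 CPM. Among PDPN+ neratinib libraries, Xbp1 stood at 549 CPM in that of mouse N53194 against 43.5 to 67.7 CPM, and Hspa5 at 4217 CPM in that of mouse N53180 against 2313 to 2637 CPM. Among PDPN+ vehicle libraries, Dnajc3 stood at 311 CPM in that of mouse V53185 against 104 to 111 CPM, and Syvn1 at 98.6 CPM in that of mouse V53175 against 49.8 to 56.7 CPM.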

How the results depend on the processing

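For neratinib, 0 of 40 genes passed in either population or in the difference of the effects under every alternative run, leaving out each library included (0 to 0 passing). On the TPM scales Trib3 could not be tested in PDPN+ cells. Between the populations, 20 genes passed in edgeR's quasi-likelihood test, 32 on log2(TPM + 1), 31 on log2(TPM + 0.1) and 8 with the file code digit as a covariate, which largely follows the population and cannot be fully told apart from it. Of all genes, 4761 were higher and 4911 lower of 19626 tested in edgeR, 2771 and 7519 of 15632 on log2(TPM + 1), 2553 and 7742 of 15632 on log2(TPM + 0.1), and 2273 and 1933 of 19626 with the covariate; the cause of the shifts on the TPM scales was not tested. Leaving out each library gave 19 to 23. Among estimates that passed in edgeR's test or in the alternative, the sign changed for Pdia6 (-0.45) and Dnajb9 (-0.44) on both TPM scales. It also changed for Ppp1r15a (0.71) and Canx (0.34) with GC offsets. The median of all genes was -0.13 in edgeR's test, -0.63 on log2(TPM + 1), -0.97 on log2(TPM + 0.1) and 0.51 with GC offsets. Beside the median of the same fit, Pdia6, Dnajb9 and Ppp1r15a lay above and Canx below, both in edgeR's test and in these alternatives. The cause was not tested. Estimates between the populations that passed in neither changed sign in 29 further cases, and in 6 on leaving out a library. With mouse as a replicate block, 16 genes passed between the populations and 0 for the difference of the effects. Same-numbered libraries did not deviate together (correlations -0.165 to 0.0487).

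The median of ATF4 targets minus that of XBP1/ATF6 targets was -0.82 between the populations, -1.42 on log2(TPM + 0.1) and -1.39 with the replicate block. Leaving out each library gave -1.05 to -0.69. For neratinib it was 0.05 in PDPN+ cells (0.01 to 0.23) and -0.04 in EpCAM+ cells (-0.17 to 0.04), and 0.29 (0.06 to 0.47) for the difference of the effects. Over all genes, DESeq2 called 2 genes higher and 11 lower under neratinib in PDPN+ cells, and the fit of all 19 libraries 21 higher and 90 lower, none of them among the 40. The Xbp1 spliced share was not run, since none of the Xbp1 transcripts in GENCODE M21 is the spliced form.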
